A study of Mus musculus with 6 samples.

Results

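The S100 genes described here are S100a1, S100a4, S100a6, S100a10, S100a11 and S100a13, taken by name as 6 of the 12942 genes in a table of liver invariant natural killer T (iNKT) cells from mice. They were picked with their levels in this same comparison already known, so the difference between the groups is given for them as a description, without a test. The cells were sorted as CD1d-tetramer-positive and YFP-positive and are labelled iNKT1, the subset that needs T-bet, which Tbx21 encodes. The group named cKOHet carried Tbx21Cre, Rosa26-YFP+, Ets1F/F and Tbx21F/+. The control group carried Tbx21Cre and Rosa26-YFP+ alone, so the Cre and the reporter were shared by both groups. Each group had 3 libraries, numbered 1, 2 and 4. The Cre is by its name driven by Tbx21, so deletion is limited to cells that have used that gene, and the 1 floxed Tbx21 allele was present in cKOHet mice only. The effect of losing Ets1 and that of losing 1 Tbx21 allele cannot be told apart here, and ages were not given.

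S100 proteins are small calcium-binding proteins built around a pair of EF-hand motifs, and they usually work as dimers. Calcium binding opens a hydrophobic face through which most of them grip a partner protein, while S100A10 is held in the open form without calcium and forms a tetramer with annexin A2. In lymphocytes, S100A4, S100A6, S100A10 and S100A11 transcripts are known as features of effector and memory cells, and several family members act on the actomyosin cytoskeleton, membrane repair and cell movement. Their genes mostly lie together in one cluster, which in the mouse is on chromosome 3.

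The libraries held normalised read counts that summed to 5049835, 5088670 and 5219483 in cKOHet replicates 1, 2 and 4, and to 5116542, 4996523 and 5205155 in control replicates 1, 2 and 4. Ets1, the targeted transcription factor gene, was at 462, 596 and 441 in cKOHet libraries and at 7391, 6255 and 7787 in controls (log2 fold change -3.84, SE 0.14, limma adjusted p = 1.06e-10). Tbx21 was at 2206 ± 98.5 in cKOHet libraries and 2568 ± 174 in controls (SD, n = 3 libraries each), and its log2 fold change of -0.22 did not pass the test (limma adjusted p = 0.196). T cell and iNKT markers were abundant in every library, with the 10 listed markers summing to 45311, 46432 and 49945 in cKOHet libraries and 56477, 51987 and 58110 in controls. Of these 10 markers, 1 was called higher in cKOHet libraries, 2 were called lower and 7 did not pass. Of all genes tested, 11.5% were called higher and 9.97% lower. Zbtb16, which encodes the iNKT factor PLZF, was at 798, 810 and 1255 in cKOHet libraries and 670, 647 and 627 in controls, and its call (limma adjusted p = 0.0267) ended without cKOHet replicate 4 or any 1 of the controls (limma adjusted p = 0.0531 to 0.0912). The T cell receptor chain gene Trbc2 was at 2459, 2212 and 1914 in cKOHet libraries and 5127, 4475 and 5511 in controls (limma adjusted p = 6.78e-06). Il2rb, a receptor chain for interleukin-2 and interleukin-15, was at 10596, 12186 and 14344 in cKOHet libraries and 19870, 20474 and 20437 in controls (limma adjusted p = 0.00285). Replicate 4 differed from replicates 1 and 2 in both groups in carrying the Y-linked Ddx3y (604 in cKOHet and 519 in control) and almost no Xist (0.08 in cKOHet and 1.17 in control), so each group mixed libraries of both sexes in the same way. cKOHet replicate 2 stood apart in Cd8a, at 1657, against 237 and 440 in cKOHet replicates 1 and 4 and 10.7 to 20.1 in controls. The labels call the libraries independent replicates but do not name the mice, and the column codes of replicate 1 join a pair of names in each group. Fewer cells of a type and less RNA per cell cannot be told apart in bulk libraries.

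All 6 S100 genes were higher in every cKOHet library than in any control. Their summed normalised count was 13855, 12050 and 11232 in cKOHet replicates 1, 2 and 4, and 3628, 3318 and 3256 in control replicates 1, 2 and 4. As a share of all counts in the table, this was 0.274%, 0.237% and 0.215% in cKOHet libraries and 0.0709%, 0.0664% and 0.0626% in controls. The mean of the summed counts was 3.64 times as high in cKOHet libraries. Across the whole table, 2407 of 11226 genes tested (21.4%) were called at an adjusted p under 0.05, 1288 (11.5%) higher and 1119 (9.97%) lower in cKOHet libraries. At 2143 genes (19.1%) every cKOHet library lay above every control. All 6 S100 genes passed the filter on low values and were among those called higher, and since the genes were chosen on this contrast nothing is read from that count. The median log2 fold change was 2.09 over the 6 genes and 0.01 over all genes tested.

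S100a4 (ENSMUSG00000001020, GRCm38 chr3:90603771-90606045, plus strand) encodes a protein that binds non-muscle myosin IIA and is linked to cell motility. Its normalised count was 3643, 2744 and 2488 in cKOHet replicates 1, 2 and 4, and 268, 266 and 161 in control replicates 1, 2 and 4. The groups were far apart, the lowest cKOHet library being replicate 4 and the lowest control also replicate 4. The log2 fold change was 3.69 (SE 0.19), or 12.9-fold, close to that of S100a1, and which of the pair was larger changed with the pseudocount and with the libraries kept. The annotated gene Gm42674 covers 2115 bases of S100a4 on the same strand, and how reads shared by them were assigned is not given in the sources used here.

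S100a6 (ENSMUSG00000001025, chr3:90612882-90624181, plus strand) lies next to S100a4 among the expressed genes and encodes calcyclin, which binds the ubiquitin-ligase adaptor CacyBP. It was at 3275, 3466 and 2648 in cKOHet replicates 1, 2 and 4, and at 507, 622 and 404 in control replicates 1, 2 and 4. Replicate 4 was again the lowest library of each group, and the groups did not overlap. The log2 fold change was 2.62 (SE 0.15), or 6.17-fold. The ratio of S100a4 to S100a6 counts was 1.11, 0.792 and 0.940 in cKOHet libraries and 0.530, 0.427 and 0.398 in controls, so the balance between these neighbours differed between the groups with no overlap.

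S100a1 (ENSMUSG00000044080, chr3:90511034-90514392, minus strand) is best known from heart and skeletal muscle, where its protein binds the ryanodine receptor and the calcium pump SERCA2. It was at 149, 163 and 145 in cKOHet replicates 1, 2 and 4, and at 16.4, 14.9 and 5.41 in control replicates 1, 2 and 4. It was the lowest of the 6 per exon length in both groups, nearly silent in controls, and the cKOHet libraries were close to one another. The log2 fold change was 3.66 (SE 0.39), or 12.6-fold, and was 3.20 without control replicate 4. With a pseudocount of 5 it was 3.26, as the size of a change from so few counts depends on that constant.

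S100a13 (ENSMUSG00000042312, chr3:90514435-90524581, plus strand) encodes a protein known for the non-classical export of FGF1 and interleukin-1 alpha. Its normalised count was 498, 470 and 439 in cKOHet replicates 1, 2 and 4, and 260, 229 and 213 in control replicates 1, 2 and 4. The log2 fold change was 1.003 (SE 0.14), or 2.005-fold, close to that of S100a10, which was the smaller of the pair in some settings, among them without cKOHet replicate 1 (0.93 for S100a10 and 0.96 for S100a13) and without control replicate 2 (0.96 for S100a10 and 0.99 for S100a13). S100a13 and S100a1 are arranged head to head with 42 bases between them. The ratio of S100a13 to S100a1 counts was 3.34, 2.88 and 3.04 in cKOHet libraries and 15.8, 15.4 and 39.3 in controls, so this divergent pair changed by unequal amounts.

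S100a11 (ENSMUSG00000027907, chr3:93520488-93526287, plus strand) encodes a partner of annexin A1 that takes part in plasma membrane repair. It was at 2360, 2238 and 2295 in cKOHet replicates 1, 2 and 4, and at 876, 742 and 733 in control replicates 1, 2 and 4. The cKOHet libraries agreed within a narrow range, and the log2 fold change was 1.56 (SE 0.12), or 2.94-fold. Processed pseudogenes resemble its transcript closely, among them Gm12854 (99.0% identity over 297 bases, mean count 25.9) and Gm7665 (98.7% over 297 bases, mean count 7.12). How reads shared by S100a11 and these copies were assigned is not given in the sources used here, so its value is uncertain.

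S100a10 (ENSMUSG00000041959, chr3:93555080-93564643, plus strand) encodes p11, the annexin A2 ligand, which also carries ion channels and receptors to the cell surface and serves as a docking site for plasminogen. It was at 3930, 2970 and 3218 in cKOHet replicates 1, 2 and 4, and at 1700, 1444 and 1741 in control replicates 1, 2 and 4. The log2 fold change was 1.04 (SE 0.13), or 2.06-fold, so that S100a10 and S100a13 showed the smallest differences while S100a4 and S100a1 showed the largest. The groups did not overlap, and replicate 2 was the lowest library of each.

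**Figure D1:**
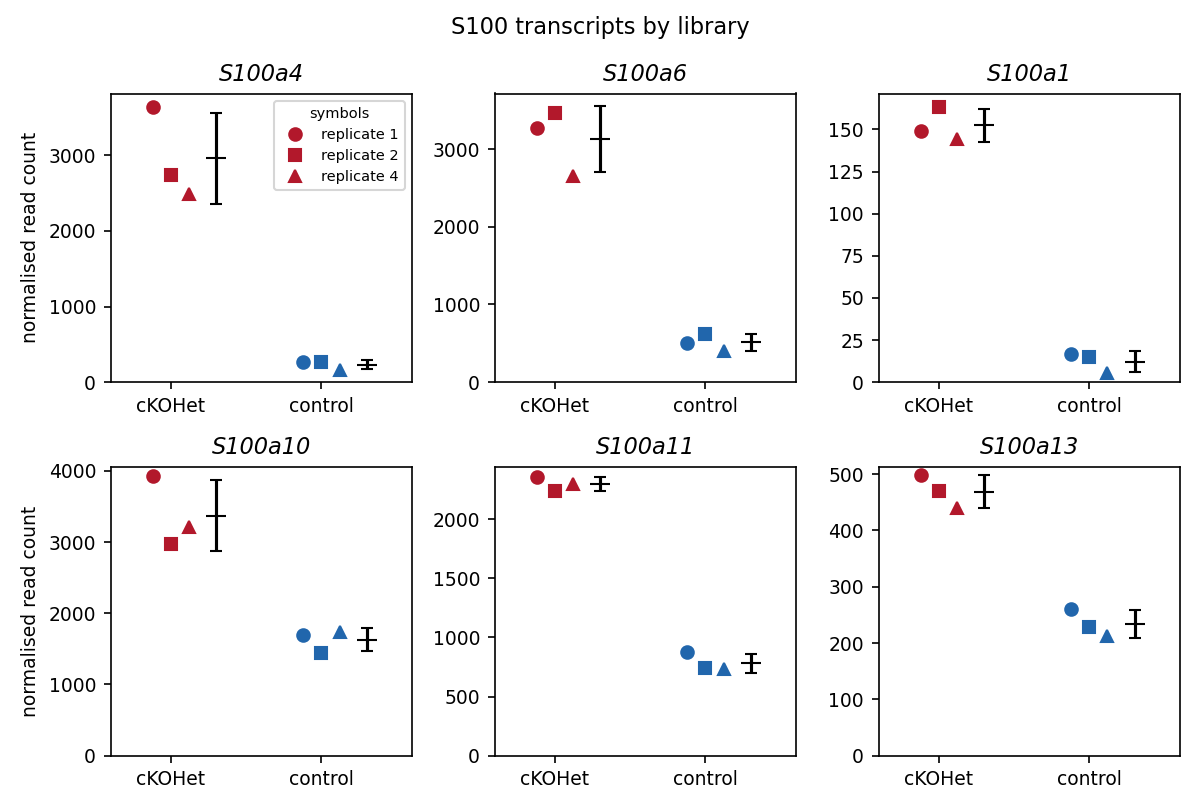
Normalised read count of each S100 gene in each library, with cKOHet left and control right; symbols mark the replicate number, and the black bar with whiskers is the mean ± SD of 3 libraries. In all 6 panels every cKOHet library lies above every control, from 2.005-fold for S100a13 to 12.9-fold for S100a4.

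Within groups the genes differed in how tightly the libraries agreed. The pooled within-group SD on the log2(value + 1) scale was 0.10 for S100a11, 0.12 for S100a13, 0.18 for S100a10, 0.26 for S100a6, 0.36 for S100a4 and 0.57 for S100a1, beside a median of 0.24 over all genes tested. For S100a1 nearly all of it came from the controls, whose SD was 0.80, against 0.09 among cKOHet libraries. Control replicate 4 was below its group mean by 0.92 for S100a1, 0.49 for S100a4 and 0.32 for S100a6 on that log2 scale, but slightly above it for S100a10. Over 23 alternative settings, which included leaving out each library, the log2 fold change of S100a4 ranged between 3.44 and 3.81, that of S100a6 between 2.47 and 2.78, and that of S100a1 between 3.20 and 3.92. S100a11 ranged between 1.51 and 1.64, S100a10 between 0.93 and 1.13, and S100a13 between 0.94 and 1.08. Settings that changed only the filter, threshold, mean-variance trend or replicate block could not move these values. Replicates 1 and 2 alone, the libraries with high Xist, gave 3.56 for S100a4, 3.24 for S100a1, 2.58 for S100a6, 1.51 for S100a11, 1.12 for S100a10 and 0.98 for S100a13, and those with low Xist number 1 in each group.

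Levels can be compared between genes only per length, so each count was divided by the total exon length of its gene in GENCODE M21. Per kb of exon, S100a4 (5066 ± 1039) and S100a11 (4496 ± 120) stood highest in cKOHet libraries, followed by S100a10 (2783 ± 411), S100a6 (2289 ± 313), S100a13 (656 ± 40.9) and S100a1 (220 ± 14.2; SD, n = 3 libraries). In controls the order was S100a11 (1533 ± 157), S100a10 (1344 ± 133), S100a4 (397 ± 105), S100a6 (374 ± 80.0), S100a13 (327 ± 33.9) and S100a1 (17.6 ± 8.61; SD, n = 3 libraries). The libraries of S100a4 and S100a11 overlapped in cKOHet cells, as did those of S100a10 and S100a6. In controls, S100a11 and S100a10 overlapped, and S100a4, S100a6 and S100a13 all overlapped one another. Of the summed level per kb, S100a4 made up 35.8%, 31.4% and 30.1% in cKOHet libraries and 10.6%, 11.7% and 7.35% in controls, whereas S100a10 made up 18.6%, 16.4% and 18.7% in cKOHet libraries and 32.4%, 30.6% and 38.4% in controls. The exon lengths are unions over all annotated isoforms, so a gene whose long isoforms are unused appears lower than it is.

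**Figure D2:**
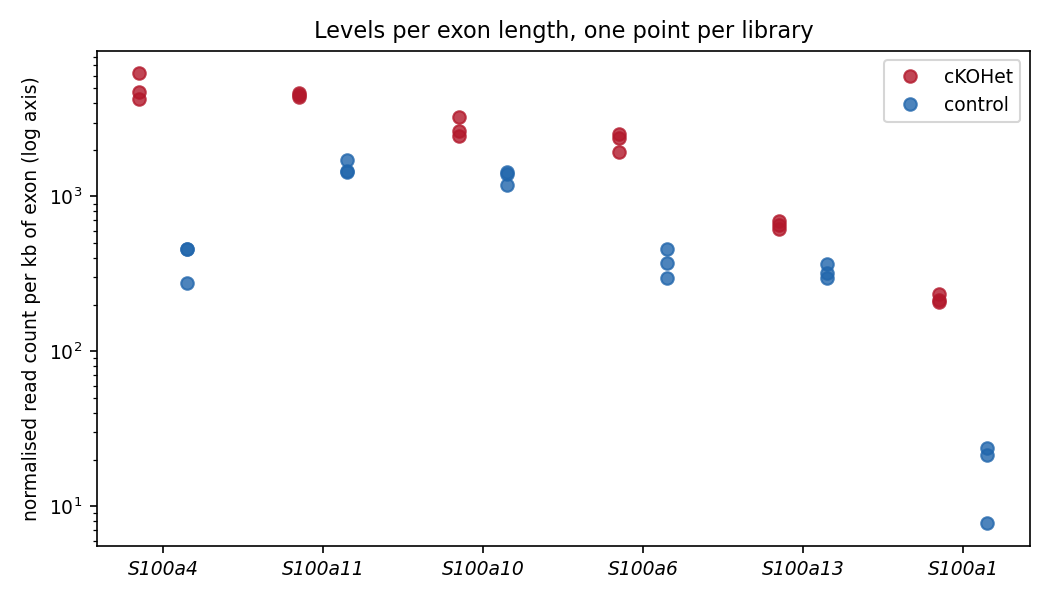
Normalised read count per kb of exon on a log axis, 1 point per library, with cKOHet left of control for each gene. In controls S100a11 and S100a10 stand highest (1533 and 1344 on average), while in cKOHet libraries S100a4 reaches the level of S100a11 (5066 and 4496 on average).

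The 6 genes lie in a span of 3054 kb of chromosome 3 (chr3:90511034-93564643), S100a1, S100a13, S100a4 and S100a6 at one end and S100a11 and S100a10 at the other. GENCODE M21 annotates 121 genes in the span, 75 of them protein-coding, including many genes of the epidermis. Besides the S100 genes, 5 were in the table and 4 were tested, all of them predicted genes or pseudogenes. None of these 4 was called at the adjusted p threshold of limma (beside 21.4% of all genes), nor did any have an unadjusted p under 0.05. Their median log2 fold change was -0.25. They were low, with group means of 8.16 to 48.2, and their SEs were 0.33 to 0.54. Small changes in them could therefore hardly be called. The tested genes out to 500 kb beyond either end, a window chosen after the values were seen, added 13 genes, all before S100a1. Of the resulting 17 genes, 1 fell and none rose by limma's adjusted p (5.88% called, beside 21.4% of all genes). Their median log2 fold change was 0.07. At an unadjusted limma p under 0.05, 3 were higher and 1 lower. The share of all genes under that threshold is not given here, so nothing is read from the unadjusted counts. The gene that fell was Rps27, a ribosomal protein gene of a kind with many processed copies in the genome (log2 fold change -0.63, limma adjusted p = 0.00327, and 0.0526 without the mean-variance trend).

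**Figure D3:**
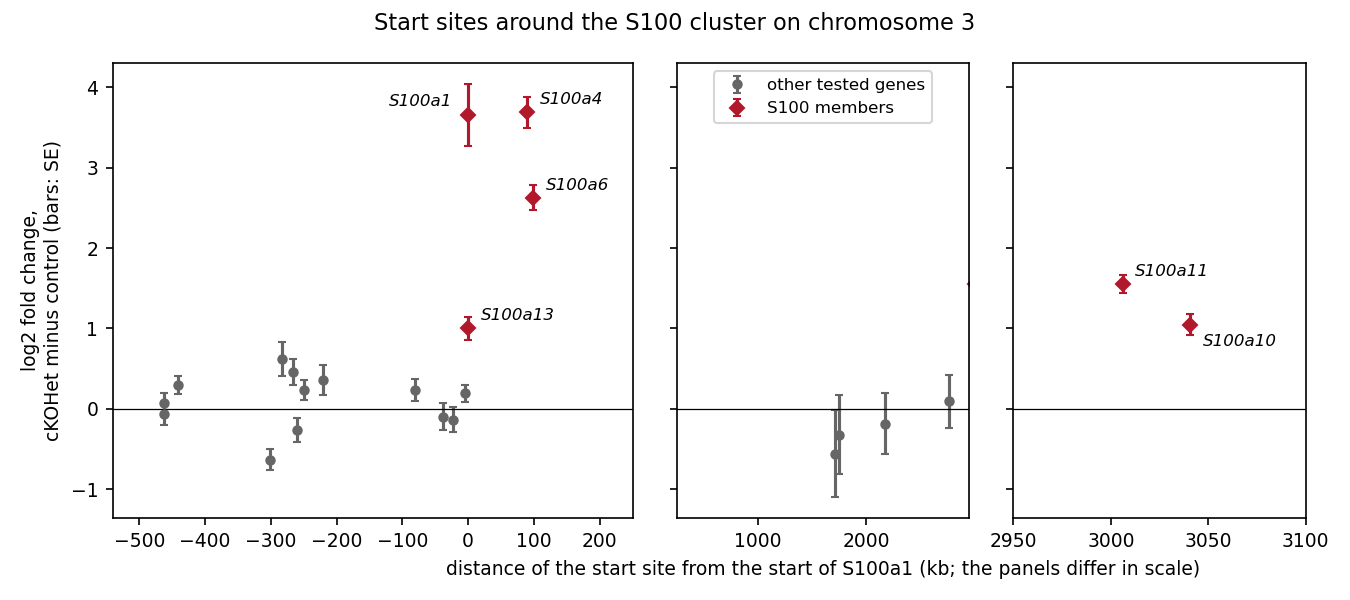
Log2 fold change (cKOHet minus control, bars are standard errors) against the distance of each start site from that of S100a1, in 3 panels of different horizontal scale. The 6 S100 genes lie at 1.003 or above, while the 17 other tested genes lie between -0.63 and 0.62 with a median of 0.07.

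Promoter sequences are shown as a description, with the binding core of ETS proteins, GGAA, marked in them. RefSeq promoter windows (GRCm38.p6), from 250 bases before to 50 bases after the start, were matched by symbol for 5 of the 6 genes, all but S100a10. In the windows below, written 5′ to 3′ on the strand of the gene, capitals mark every GGAA or its reverse complement TTCC. They show the genes with large differences (S100a4 and S100a6), the gene with the most even libraries (S100a11), and the window of S100a13, which shares 204 bases with that of S100a1 on the other strand.
S100a4, chr3:90603520-90603819, plus strand: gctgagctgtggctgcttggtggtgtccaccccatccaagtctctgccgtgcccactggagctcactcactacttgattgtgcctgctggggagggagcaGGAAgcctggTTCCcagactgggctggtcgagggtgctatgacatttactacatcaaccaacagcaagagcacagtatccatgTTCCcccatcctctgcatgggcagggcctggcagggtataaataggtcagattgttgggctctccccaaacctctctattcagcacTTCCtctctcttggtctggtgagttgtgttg
S100a6, chr3:90612644-90612943, plus strand: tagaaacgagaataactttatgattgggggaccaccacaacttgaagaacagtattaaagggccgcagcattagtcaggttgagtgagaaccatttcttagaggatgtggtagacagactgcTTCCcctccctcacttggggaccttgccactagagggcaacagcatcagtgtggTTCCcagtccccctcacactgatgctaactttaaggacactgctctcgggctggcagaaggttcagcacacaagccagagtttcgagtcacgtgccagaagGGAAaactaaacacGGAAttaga
S100a11, chr3:93520246-93520545, plus strand: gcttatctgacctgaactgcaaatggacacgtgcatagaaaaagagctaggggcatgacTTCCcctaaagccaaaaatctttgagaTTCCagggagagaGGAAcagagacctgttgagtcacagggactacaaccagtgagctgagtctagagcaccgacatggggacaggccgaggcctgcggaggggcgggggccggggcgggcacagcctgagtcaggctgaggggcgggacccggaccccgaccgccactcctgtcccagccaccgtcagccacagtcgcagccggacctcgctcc
S100a13, chr3:90514185-90514484, plus strand: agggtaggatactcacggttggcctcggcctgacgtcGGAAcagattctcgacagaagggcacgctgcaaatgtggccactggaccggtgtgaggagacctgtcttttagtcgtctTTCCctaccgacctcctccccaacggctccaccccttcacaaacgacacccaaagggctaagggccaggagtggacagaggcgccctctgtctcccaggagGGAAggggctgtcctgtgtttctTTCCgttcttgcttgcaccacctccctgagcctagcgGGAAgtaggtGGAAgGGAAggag

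The GGAA core was found 4 times in the window of S100a4, 4 times in that of S100a6, 3 times in that of S100a11, 7 times in that of S100a13 and 9 times in that of S100a1, counting both strands. It occurs in 96.0% of the 32851 mouse promoter windows of this length, with a median of 3 matches and a 5th to 95th percentile range of 1 to 7. The longer ETS sequence CCGGAAGT, which contains the core, was in none of the 5 windows and in 3.89% of all windows. The T-box half-site AGGTGTGA was in none of the 5 and in 1.28% of all windows, both strands searched in each case. The windows of S100a11, S100a13 and S100a1 held 15, 14 and 11 CpG dinucleotides, those of S100a6 and S100a4 held 6 and 2. A match or its lack describes the letters in these windows only.

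Annexin A2 and AHNAK, which join S100A10 in one complex beneath the plasma membrane, were also higher in cKOHet libraries. Anxa2 was at 2378, 2775 and 2500 in cKOHet replicates 1, 2 and 4, and at 642, 557 and 485 in control replicates 1, 2 and 4 (log2 fold change 2.19, SE 0.13, limma adjusted p = 1.53e-08). Ahnak, which encodes the giant scaffold protein, was at 10784, 9058 and 14290 in cKOHet libraries and at 3634, 3864 and 2641 in controls (1.74, SE 0.18, limma adjusted p = 3.54e-06). Both log2 fold changes were above the 1.04 of S100a10, and the ratio of Anxa2 to S100a10 counts was 0.605, 0.935 and 0.777 in cKOHet libraries and 0.378, 0.386 and 0.279 in controls. The difference in log2 fold change between these genes was not tested.

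The listed partners of S100 proteins, Anxa2 and Ahnak included, were called at a share close to that of all genes. Of 38 listed partner and receptor genes, 24 were in the table and 22 were tested, of which 4 rose, 1 fell and 17 did not pass (22.7% called, beside 21.4% of all genes). Their median log2 fold change was 0.00. Besides Anxa2 and Ahnak, Sugt1, a co-chaperone bound by S100A6, rose (546 ± 71.4 in cKOHet and 376 ± 33.1 in control libraries, log2 0.53, limma adjusted p = 0.0138), as did Anxa6 (6038 ± 423 in cKOHet and 4479 ± 228 in control libraries, log2 0.43, limma adjusted p = 0.0170). Trp53, whose protein p53 several S100 proteins bind, fell (763 ± 67.1 in cKOHet and 1118 ± 196 in control libraries, log2 -0.54, limma adjusted p = 0.0124). These 3 calls were fragile. That of Trp53 ended without cKOHet replicate 4, control replicate 1 or control replicate 4 (limma adjusted p = 0.0520, 0.0621 and 0.0654). That of Sugt1 ended without cKOHet replicate 1 or control replicate 4 (limma adjusted p = 0.0617 and 0.0623), and that of Anxa6 without cKOHet replicate 2, control replicate 1 or control replicate 2 (limma adjusted p = 0.0501, 0.0621 and 0.0788). All 3 also ended without the mean-variance trend of the fit (limma adjusted p = 0.1, 0.0744 and 0.0805 for Trp53, Sugt1 and Anxa6) and in replicates 1 and 2 alone (limma adjusted p = 0.148, 0.111 and 0.0539).

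Other named partners did not pass the test. Myh9, the non-muscle myosin heavy chain bound by S100A4, was at 8969 ± 501 in cKOHet and 8992 ± 1242 in control libraries (log2 0.00, 95% interval -0.29 to 0.30, limma adjusted p = 0.991). Cacybp, the partner of S100A6, was at 341 ± 90.6 in cKOHet and 295 ± 8.42 in control libraries (log2 0.17, 95% interval -0.22 to 0.56, limma adjusted p = 0.574). Anxa1, the partner of S100A11, was at 357 ± 78.7 in cKOHet and 399 ± 85.4 in control libraries (log2 -0.16, 95% interval -0.56 to 0.24, limma adjusted p = 0.611). Ager, which encodes the receptor RAGE for extracellular S100 proteins, was too low to be tested, at 13.5 ± 6.42 in cKOHet and 5.996 ± 3.34 in control libraries. S100pbp (chromosome 4) encodes a nuclear S100-binding protein and not an S100 protein. It was listed with the other S100 family genes, so the partner share given above leaves it out. Its count was 461, 515 and 512 in cKOHet replicates 1, 2 and 4, and 233, 199 and 203 in control replicates 1, 2 and 4 (log2 1.22, SE 0.14, limma adjusted p = 1.47e-05). The remaining 11 genes of that family list, S100a8 and S100a9 among them, were not in the table, from which low genes were already missing.

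**Figure D4:**
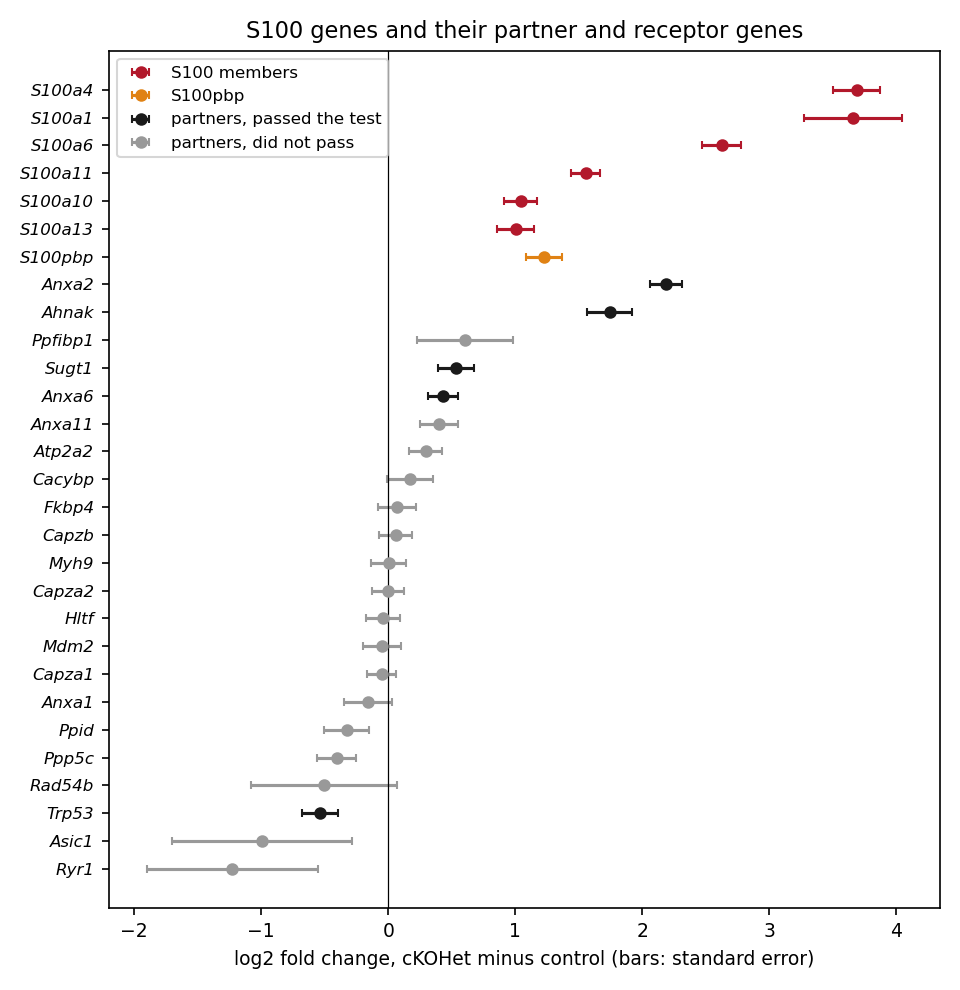
Log2 fold change (cKOHet minus control) with its standard error for the 6 S100 genes, S100pbp and the 22 tested partner and receptor genes. Anxa2 (2.19) and Ahnak (1.74) lie among the S100 genes, and most other partners lie near 0.

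Other EF-hand genes moved in both directions. Of 67 listed, 57 were in the table and 53 were tested, of which 9 rose, 8 fell and 36 did not pass (32.1% called, beside 21.4% of all genes), with a median log2 fold change of 0.06. Among those that rose were Swap70, a regulator of actin and Rac (434 ± 40.5 in cKOHet and 112 ± 25.2 in control libraries, log2 1.97, limma adjusted p = 1.72e-06), and Slc25a24, a calcium-regulated mitochondrial ATP-Mg carrier (917 ± 95.4 in cKOHet and 279 ± 52.9 in control libraries, log2 1.72, limma adjusted p = 8.55e-07). Capn2, a calpain protease subunit, was at 1679 ± 225 in cKOHet and 818 ± 52.8 in control libraries (log2 1.03, limma adjusted p = 2.24e-05). The Ras activators of this class moved apart. Rasgrp1, which acts below the T cell receptor, was at 6299 ± 764 in cKOHet and 3422 ± 154 in control libraries (log2 0.87, limma adjusted p = 0.000100), while Rasgrp2, which activates Rap1 for integrin adhesion, was at 24.3 ± 9.32 in cKOHet and 315 ± 17.1 in control libraries (log2 -3.71, limma adjusted p = 2.32e-07).

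Among the EF-hand genes that fell, Efhd2, an actin-binding protein gene, was at 528 ± 92.7 in cKOHet and 1827 ± 411 in control libraries (log2 -1.78, limma adjusted p = 1.18e-06). Dgka, the diacylglycerol kinase that dampens T cell receptor signals, was at 531 ± 33.7 in cKOHet and 1426 ± 38.3 in control libraries (log2 -1.42, limma adjusted p = 3.50e-07). Ehd3, an endosomal trafficking gene, was at 476 ± 185 in cKOHet and 1009 ± 207 in control libraries (log2 -1.14, limma adjusted p = 0.00212). Calm2, a calmodulin gene, fell (947 ± 39.6 in cKOHet and 1318 ± 76.9 in control libraries, log2 -0.48, limma adjusted p = 0.00618). Calm3 (1807 ± 143 in cKOHet and 1603 ± 242 in control libraries, limma adjusted p = 0.369), another calmodulin gene, did not pass. The calls of Ehd3 and Calm2 ended without the mean-variance trend (limma adjusted p = 0.0630 and 0.0541).

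**Figure D5:**
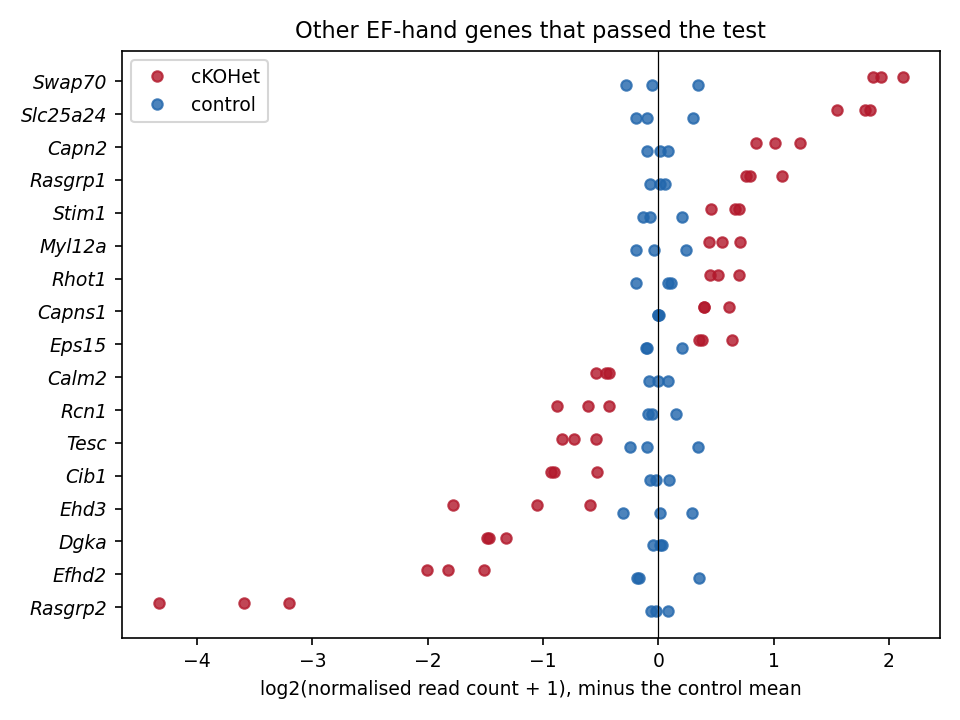
The 17 other EF-hand genes that passed the test, as log2(normalised count + 1) minus the control mean, 1 point per library, cKOHet above control in each row. The cKOHet libraries lie to the right of the controls for 9 genes and to the left for 8.

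The genes whose pattern over the 6 libraries was nearest to each S100 gene were sought among 8278 others. These were tested genes with a mean of at least 50, and predicted genes and pseudogenes were left out. Likeness was the root mean square difference between log2 profiles, each centred on its own mean, and is a description only. S100a4 was nearest to Nebl, an actin-binding nebulette gene (0.23), S100a1 (0.28) and Rap1gap2, a Rap1 inhibitor gene (0.29). S100a1 was nearest to Zeb2, a zinc-finger transcription factor gene (0.20), S100a4 (0.28) and Arg1, the arginase gene (0.29). S100a6 was nearest to Emp3, a membrane protein gene (0.18), Rmdn2 (0.19) and Lgals1, which encodes galectin-1 (0.19). Lgals1 was at 8111, 8430 and 7124 in cKOHet libraries and 1090, 1106 and 939 in controls.

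S100a10 was nearest to Gclc, a glutathione synthesis gene (0.11), Txndc17 (0.12) and Lpcat3, a phospholipid acyltransferase gene (0.13). S100a11 was nearest to Mgat5, an N-glycan branching enzyme gene (0.09), Mafg, a small Maf transcription factor gene (0.10), and Serpinb6a (0.12). S100a13 was nearest to Abhd5, a lipolysis cofactor gene (0.05), Csgalnact2, a chondroitin synthesis gene (0.07), and Palm3 (0.10). Among the S100 genes themselves, S100a10 and S100a13 were 0.15 apart, whereas S100a1 and S100a10, the most distant pair, were 1.41 apart.

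Many S100 transcripts are also abundant in myeloid cells, so markers of other liver cells were read in the same libraries. All 10 macrophage markers were in the table, and their summed count was 152 to 210 in cKOHet libraries and 36.6 to 98.3 in controls. The lysozyme gene Lyz2, the highest of them summed over the libraries, was at 42.3, 31.5 and 38.5 in cKOHet libraries and 37.0, 27.5 and 10.7 in controls. The Kupffer cell marker Clec4f was at 22.2, 32.7 and 24.9 in cKOHet libraries and 11.01, 5.36 and 1.15 in controls. Adgre1, which encodes the macrophage antigen F4/80, was at 16.1, 1.79 and 7.25 in cKOHet libraries and at 2.72, 0.04 and 0.04 in controls. The macrophage sum moved in the same direction as the S100 genes, and its part in their difference was not tested. In the dendritic cell list, 3 of 7 markers were in the table with a sum of 298 to 369 in cKOHet libraries and 115.5 to 157 in controls. These were Xcr1 (187, 180 and 170 in cKOHet libraries and 126, 108 and 95.2 in controls), Itgax (98.7, 150.4 and 152 in cKOHet libraries and 20.1, 22.3 and 13.9 in controls) and H2-Ab1 (12.1, 39.1 and 44.6 in cKOHet libraries and 10.05, 12.7 and 6.44 in controls). Their part in the S100 differences was not tested. Hepatocyte markers (7 of 7, mostly Alb) summed to 257 to 630 in cKOHet libraries and 220 to 409 in controls. NK cell and ILC1 markers (4 of 4, with Tyrobp the highest over all libraries) summed to 59.4 to 132 in cKOHet libraries and 44.0 to 90.6 in controls. In control replicate 4, Klri2 alone was at 44.0. The CD8 T cell pair Cd8a and Cd8b1 summed to 252, 1693 and 454 in cKOHet libraries and 23.7, 42.2 and 29.7 in controls. In cKOHet libraries this sum was mostly Cd8a. Cd8b1 was at 15.1, 35.4 and 13.6 in cKOHet libraries and 3.56, 31.5 and 16.9 in controls, with overlap, and did not pass. Of the tested markers, 2 of 5 macrophage and 2 of 3 dendritic cell markers were called higher. So were 2 of 2 NK cell and ILC1 markers, 1 of 2 CD8 T cell markers and 0 of 3 hepatocyte markers. The called NK cell and ILC1 markers overlapped between the groups. Tyrobp was at 34.4 in cKOHet replicate 4 and 38.1 in control replicate 4. Eomes was at 12.48 in cKOHet replicate 4 and 12.64 in control replicate 2. The others, Ncr1 and Klri2, were too low to be tested and lower in every cKOHet library than in any control. Ncr1 was at 5.52 to 7.05 in cKOHet libraries and 8.45 to 9.47 in controls. Klri2 was at 5.05 to 7.33 in cKOHet libraries and 8.49 to 44.0 in controls. None on these lists was called lower, beside 11.5% of all genes called higher and 9.97% lower. Several of these markers were low and passed the filter largely through their cKOHet libraries. The endothelial marker Stab2, the 1 of 6 in the table, was at most 12.4 in any library. None of the 8 neutrophil, 5 B cell and 7 stellate cell and fibroblast markers listed was in the table, from which low genes were already missing.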

How the data were processed

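Per the labels' protocols, RNA from sorted liver iNKT cells was extracted on RNeasy columns and made into sequencing libraries by the Ovation Ultralow method. The authors deposited a table of normalised HTSeq counts, a signal per Ensembl gene that is neither whole reads nor a length-corrected unit. Per the submitters' processing notes, Trimmomatic 0.33, STAR, HTSeq 0.6.1 and DESeq2 are named, with the mm10 build. The settings, annotation, strand and normalisation method are not stated there, and the original depth is unknown. No gene had a maximum below 5.22, so low genes were already missing.

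GENCODE M21 (GRCm38) named 12864 of 12942 identifiers. Values were analysed as log2(value + 1), which understates changes of low genes. Genes at or above 10 in at least 3 libraries (11226) were tested with limma 3.58.1 in R 4.3.3 with a mean-variance trend, as cKOHet minus control. P-values were Benjamini-Hochberg adjusted over all genes tested, and called under 0.05. They set the difference between the groups against the spread between these libraries, moderated over all genes tested. Whether the libraries are separate mice is not stated. With 3 libraries against 3, an exact permutation test of a single gene cannot fall below 0.1. The procedure was checked on simulated data with fewer changed genes than were called here and none of them low. That check therefore does not cover low genes or changes as widespread as these. The S100 genes and the gene lists were chosen with earlier results of these data known. Named genes were the targeted genes, the S100 genes, up to 8 called genes per list with the smallest adjusted p, 8 further partner and EF-hand genes (1 of them is not reported here), and the 3 nearest in pattern to each S100 gene. Other genes named, such as Cd8a, Clec4f, Trbc2, Itgax, Lgals1 and Rps27, were chosen after their values were seen.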

Additional observations from a re-analysis of the deposited data

How the results depend on the processing

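The 23 alternative settings varied scaling, pseudocount, filter, threshold, variance model, replicate block, Xist split and the libraries kept. The log2 fold changes of the S100 genes under them are given above, and since these genes were chosen on this contrast nothing is read from their calls. Without the mean-variance trend, 2 partner genes were higher and 0 lower (4 and 1 with it), and 5 other EF-hand genes were higher and 5 lower (9 and 8 with it). Calls over all genes tested also became fewer, at 897 higher and 773 lower (1288 and 1119 with the trend). At an adjusted p under 0.01, 806 genes were higher and 670 lower, with 2 and 0 partner genes. At an adjusted p under 0.1, 2 partner genes were lower, beside 1401 of all genes tested. In the libraries with high Xist alone, 2 partner genes were higher and 0 lower, from fewer libraries. The count over all genes in that setting is not given here, so nothing is read from it. Leaving out 1 library gave 0 to 1 partner genes lower, beside 829 to 1033 of all genes tested. Log2 fold changes were followed over the settings for the S100 genes and part of the named genes only, and no called gene among these changed direction. The causes of these moves were otherwise not tested. With the replicate number as a block, 1274 genes were higher and 1138 lower, and it changed no call given above with its adjusted p. The numbers were not taken as pairs, since same-numbered libraries deviated together by correlations of only 0.09, 0.09 and 0.06, although all 6 libraries correlated best with their own number. The smallest values among the S100 genes, those of S100a1 in controls, limit the precision of its fold change.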
